A study of Mus musculus with 244 samples.

Results

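Growing oocytes, the egg cells of primary and secondary follicles, were set against somatic cells of secondary follicles that were prepared on the same library plate, plate 6. Cells were taken by their plate number and by the cell type and stage in their titles, which gave 10 of the 59 oocytes of the series (2 secondary and 8 primary) and 11 of its 42 secondary somatic cells, together 21 cells or 8.61% of all cells. Of the 25 cells on the plate, 3 oocytes of follicles in transition to the primary stage and 1 other cell were left out. All cells came from outbred CD-1 mice at P6 (postnatal day 6), with no treatment, mutation or transgene in either group. Follicles were sorted by stage under the microscope, taken apart with enzymes, and single cells were picked and copied by SMART-Seq2, which reads polyadenylated RNA over its full length without molecular identifiers. Ovaries of several pups were pooled for a collection and no source names the animal of a cell, so each group counted as 1 sample, and no p-value, standard error or test of a difference is given. Intervals at 95% cover counting error only, and reads that are PCR copies make them too narrow.

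The oocyte and the granulosa cells around it grow together and depend on each other. The growing oocyte builds its coat, the zona pellucida, stores RNA for the embryo, and secretes GDF9 and BMP15, which act on granulosa cells. Granulosa cells feed the oocyte through gap junctions, surround it with a basement membrane, respond to follicle-stimulating hormone and make steroids, inhibins and anti-Müllerian hormone. An oocyte at this stage is arrested in meiosis, while granulosa cells divide.

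The genes that mark the 2 cell types were read first. Zp2, Zp3, Gdf9 and Bmp15 mark oocytes, and Inha, the alpha subunit of inhibins, marks granulosa cells. On GRCm38, Zp2 lies on chr7:120126772-120145291 (minus strand), Zp3 on chr5:135980099-135988624 (plus), Gdf9 on chr11:53431023-53437904 (plus), Bmp15 on chrX:6314107-6320721 (minus) and Inha on chr1:75507077-75510366 (plus), all protein-coding genes of GENCODE release M21. The promoters of 2 oocyte genes of this set, Zp3 and Bmp15, are shown with those of Dazl, a germ cell gene among the highest in oocytes, and Hsd3b1, the lowest gene, so that genes of both directions can be seen. They run from 250 bases before to 50 bases after the RefSeq start of the gene (GRCm38.p6), 5′ to 3′ on the strand of the gene: Zp3 at chr5:135979855-135980154 (plus), Bmp15 at chrX:6320675-6320974 (minus), Dazl at chr17:50293571-50293870 (minus) and Hsd3b1 at chr3:98859745-98860044 (minus). Capitals mark E-boxes, CANNTG, the motif that basic helix-loop-helix factors bind; FIGLA, a factor of this kind, acts on zona genes in mouse oocytes.
Zp3: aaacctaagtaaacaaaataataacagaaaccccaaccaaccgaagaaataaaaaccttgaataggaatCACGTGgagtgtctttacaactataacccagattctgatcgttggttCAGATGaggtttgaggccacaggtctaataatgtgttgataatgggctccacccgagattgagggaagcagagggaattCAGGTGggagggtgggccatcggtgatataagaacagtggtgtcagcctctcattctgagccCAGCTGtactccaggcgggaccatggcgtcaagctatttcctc
Bmp15: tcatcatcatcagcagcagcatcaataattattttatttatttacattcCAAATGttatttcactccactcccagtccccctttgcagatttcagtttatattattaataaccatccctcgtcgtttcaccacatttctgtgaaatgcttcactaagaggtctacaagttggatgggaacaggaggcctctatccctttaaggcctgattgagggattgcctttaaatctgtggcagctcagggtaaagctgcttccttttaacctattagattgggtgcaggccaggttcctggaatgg
Dazl: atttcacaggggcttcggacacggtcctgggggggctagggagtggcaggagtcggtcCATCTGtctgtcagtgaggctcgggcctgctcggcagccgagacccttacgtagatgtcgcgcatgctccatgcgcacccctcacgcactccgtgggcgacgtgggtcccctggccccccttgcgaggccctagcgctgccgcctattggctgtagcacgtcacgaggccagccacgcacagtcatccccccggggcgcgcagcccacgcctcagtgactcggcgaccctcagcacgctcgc
Hsd3b1: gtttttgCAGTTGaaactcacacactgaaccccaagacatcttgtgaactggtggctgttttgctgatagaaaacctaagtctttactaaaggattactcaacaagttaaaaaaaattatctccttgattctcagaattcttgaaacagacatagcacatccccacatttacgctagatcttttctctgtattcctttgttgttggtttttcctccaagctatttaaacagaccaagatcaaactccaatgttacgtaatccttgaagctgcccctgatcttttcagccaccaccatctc
The window of Zp3 held 4 E-boxes, and those of Bmp15, Dazl and Hsd3b1 held 1 each. The motif reads alike on both strands, was the only motif searched, and stood in 72.3% of 32851 RefSeq promoters of the same length. Counted by promoter in the same way, 10 of 13 held it for the 15 genes highest in oocytes that are named below, and 7 of 9 for the 15 lowest.

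The libraries of the groups differed in several ways beside cell type. The total count per cell was 35696 to 139643 in oocytes (median 71006) and 13382 to 55712 in somatic cells (median 37346). Thinned to 12000 counts per cell, 1595 to 1912 genes had reads in an oocyte, against 1179 to 1857 in a somatic cell (unthinned, 2529 to 3410 against 1221 to 2483). Of the reads, 6.66% to 13.3% lay on ribosomal RNA in oocytes, against 36.6% to 44.3% in somatic cells, and 15.5% to 20.96% were duplicates in oocytes, against 41.4% to 50.2% in somatic cells. Reads in introns were 3.02% to 4.68% in oocytes, against 5.78% to 13.5% in somatic cells. The groups did not overlap in any of these 3 measures, and their part in the differences between genes was not tested. Oocytes resembled each other more than somatic cells did: Pearson's r of log2(CPM + 1) across genes was 0.779 to 0.873 between oocytes, 0.106 to 0.282 between an oocyte and a somatic cell, and 0.286 to 0.411 between somatic cells. Lists of markers for theca and stroma, endothelium, immune cells, red blood cells and the ovarian surface epithelium were also read. Values on this plate were there for 9 of 12, 4 of 8, 10 of 10, 6 of 6 and 7 of 8 members in that order. The others have no values, which is not the same as 0. No member with values reached the level needed for a comparison, and the summed share of any of these lists was at most 0.0566% of the counts of a cell.

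Levels were given as CPM, counts per 1000000 counts, of a cell or of the summed counts of a group, which were 740641 in oocytes and 412366 in somatic cells. CPM is a share of the RNA read, so the amount of RNA per cell is not part of it. Of 25122 genes, 16373 had values on this plate, and the other 8749 had none in any of its cells, which is not the same as 0. For the 3373 genes with a mean of at least 20 CPM over both groups, the log2 ratio of oocytes over somatic cells was at least 1 for 791 (23.5%) and at most -1 for 1685 (50.0%), and 897 (26.6%) lay within 2-fold, with a median of -0.997. Every oocyte lay above every somatic cell for 6.73% of these genes, and below every somatic cell for 2.49%. With TMM factors the ratios of all genes moved up by the same step, to a median of -0.22, with 1109 higher and 1380 lower, and with median-of-ratios factors to -0.15, with 1138 higher and 1362 lower. The median-of-ratios factors were 1 for both groups, so ratios on that scale are those of the summed counts, with no correction for the totals. The genes higher in oocytes were mostly read in most of them (760 of 791 in at least 75% of the oocytes), whereas 393 of the 1685 lower genes were read in at least 75% of somatic cells and 675 (40.1%) had over 50% of their somatic counts in 1 cell.

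**Figure D1:**
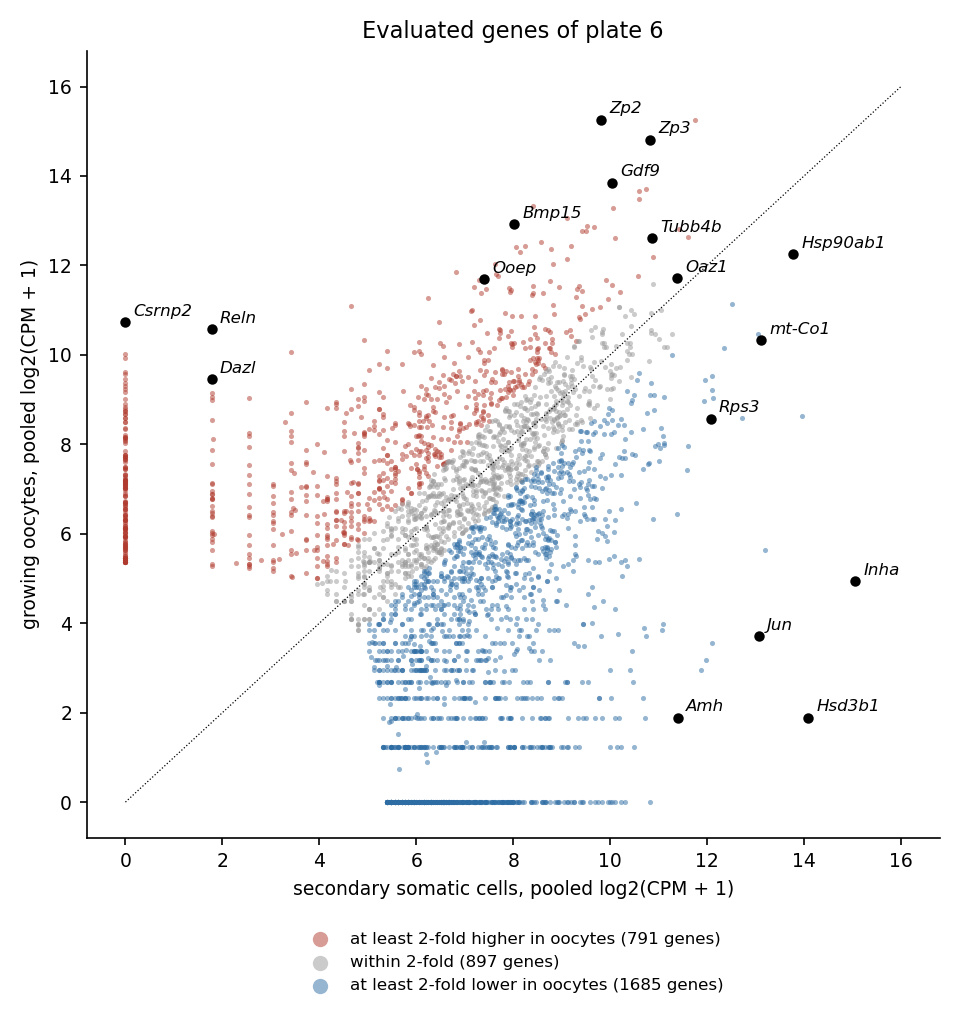
Summed level of each of 3373 genes in growing oocytes (vertical axis) against secondary somatic cells of plate 6 (horizontal axis), both as log2(CPM + 1), 1 point per gene, red where higher, blue where lower and grey within 2-fold, with some genes labelled in black. Zp2, Zp3, Gdf9 and Bmp15 lie far above the dotted line of equal levels, Inha and Hsd3b1 far below it, and more genes are blue (1685) than red (791).

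Zp2, which encodes a zona protein that sperm bind, was read at 29547 to 46850 CPM in the oocytes (median 38020) and at 0 to 2350 CPM in the somatic cells (median 581). No somatic cell reached the lowest oocyte, and the summed level was 39198 CPM in oocytes against 902 CPM in somatic cells, a log2 ratio of 5.44 (5.29 to 5.59) or 43.5-fold. Zp3, another zona protein, was at 25384 to 33277 CPM in oocytes (median 28370) and 0 to 4763 CPM in somatic cells (median 1563), a log2 ratio of 4.0 (3.89 to 4.11). Again the cells did not overlap, and the range among oocytes was narrow. Gdf9 was at 9346 to 20494 CPM in oocytes (median 13152) and 286 to 2657 CPM in somatic cells (median 750), a log2 ratio of 3.81 (3.67 to 3.95), with reads in all 11 somatic cells. Bmp15, its paralogue, was at 2951 to 15422 CPM in oocytes (median 5968) and 0 to 1617 CPM in somatic cells, where 5 of 11 cells had reads. Its log2 ratio was 4.91 (4.64 to 5.20), and 5.95 without somatic replicate 12. Per kilobase of exon, the summed levels in oocytes were ordered Zp3 (21791 CPM per kb), Zp2 (14390), Gdf9 (7269) and Bmp15 (2531), and the 4 genes took 9.05% of all oocyte counts, against 0.402% of somatic counts.

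Inha showed the opposite pattern. It was read at 19738 to 55114 CPM in all 11 somatic cells, whereas 5 of 10 oocytes had reads, with a median over all oocytes of 8.07 CPM and the most reads, 9 counts each, in secondary oocyte 5 and primary oocyte 17. The summed level was 29.7 CPM in oocytes against 33921 CPM in somatic cells, 1142-fold lower in oocytes with a log2 ratio of -10.16 (-10.83 to -9.56). Leaving out primary oocyte 17 or secondary oocyte 5, the ratio was -10.77. In every cell these 5 genes stood on the side that its label gives. The authors had removed oocytes with high somatic marker scores and somatic cells with high oocyte marker scores before deposit, so the markers are not independent of how the cells were kept.

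Transcripts of either cell type were also found in the other, and for genes kept by their direction not to the same degree. List members within 2-fold or on the other side (Ccnb2 and Ccnb3, and Acvr1b, Bmpr1b and Fstl3) were left out, so the percentages describe the kept genes only. For the 20 genes of the oocyte lists that were at least 2-fold higher in oocytes, the somatic level was a median of 6.16% of the oocyte level, from 0% for Zar1l to 26.7% for Lsm14b. For the 13 genes of the granulosa lists that were at least 2-fold lower, the oocyte level was a median of 0.1004% of the somatic level, from 0% for 4 genes to 7.42% for Runx1. The ratio between oocyte genes was not the same in every somatic cell, as somatic replicate 16 had 0 counts of Zp2 and of Zp3, but 13 counts of Gdf9 and 26 of Bmp15. The source of these reads was not tested, and low somatic levels of oocyte genes below are given without reading them as expression.

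**Figure D2:**
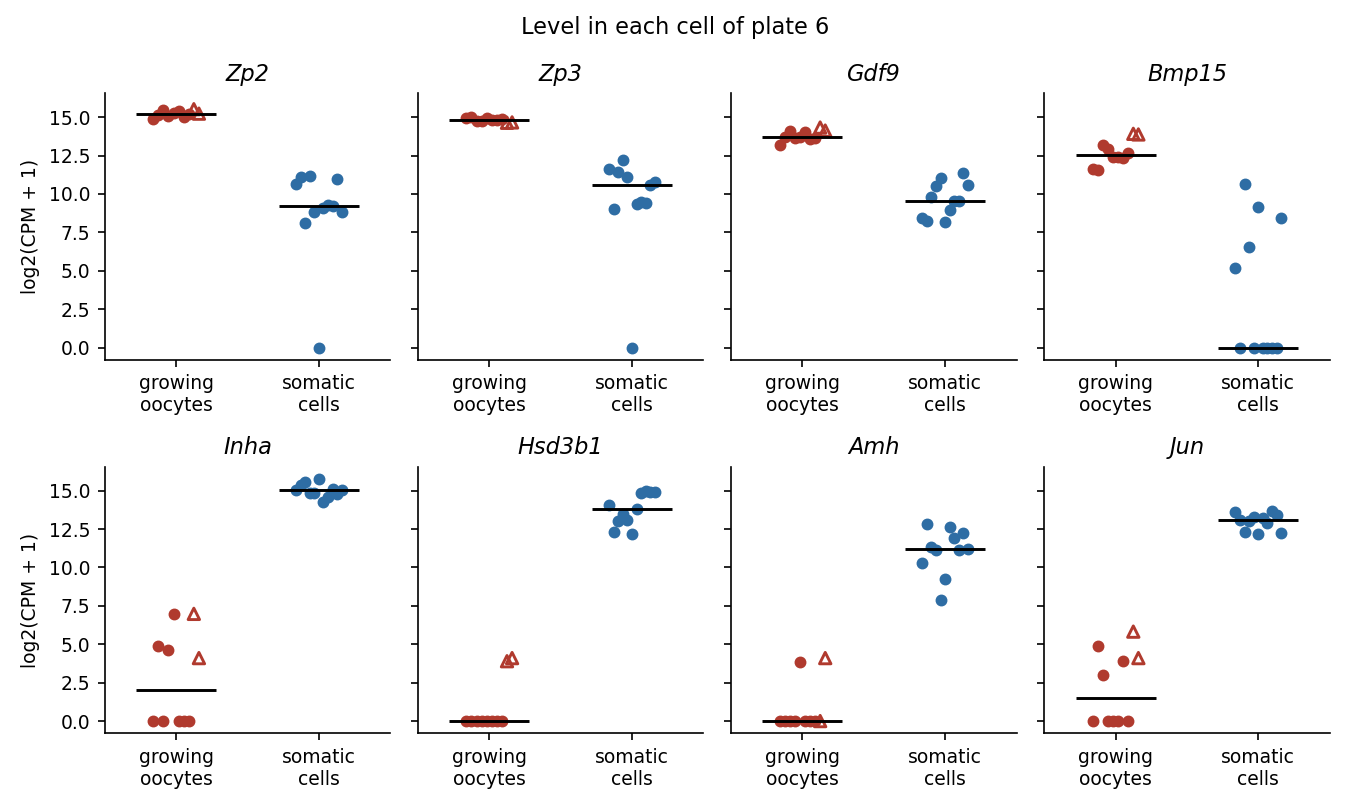
Level per cell, log2(CPM + 1), of 8 genes in growing oocytes (left in each panel) and secondary somatic cells (right) of plate 6, with bars at the medians and open triangles for the 2 secondary oocytes. For Zp2, Zp3, Gdf9 and Bmp15 the lowest oocyte lies above the highest somatic cell, and for Inha every oocyte lies below 19738 CPM, the lowest somatic cell.

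The 15 genes with the highest ratios were drawn from 1257 genes with at least 100 CPM in oocytes and reads in at least 75% of them. The rule took the ratio itself, so these values describe the genes and test nothing. Their log2 ratios were 6.6 to 9.29, and the next gene outside was Vwa2. Reln, which encodes reelin, a secreted protein best known for placing neurons in the brain, had 1125 counts in oocytes and 1 count in somatic cells. It was read in all 10 oocytes at 518 to 3827 CPM (median 1752), and the log2 ratio of 9.29 had an interval of 6.81 to 14.60 that spans the uncertainty of that 1 count. Dazl, a germ cell protein that binds stored mRNA, was at 252 to 973 CPM in oocytes (median 671) and had 1 count in somatic cells, a log2 ratio of 8.19 (5.70 to 13.49).

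Of the 15, 6 had no reads in any somatic cell, where a count of 0 allows up to 7.28 CPM (3 counts over the group), and their ratios are lower bounds against that floor. Csrnp2, a nuclear protein, was at 1125 to 2292 CPM in oocytes and at least 234.6-fold higher than in somatic cells. Arfgef3, of the ARF guanine nucleotide exchange factor family, was at least 142.5-fold higher (625 to 1560 CPM in oocytes). Adad2, which is needed in male germ cells of the mouse, was at least 134.7-fold higher (236.2 to 2256 CPM). Nptx2, a secreted pentraxin of neurons, was at least 107.5-fold higher (443 to 1878 CPM). Spry4, which dampens receptor tyrosine kinase signalling, was at least 103.9-fold higher and the most uneven of the set, at 28.01 to 3404 CPM among oocytes. Ap1m2, a subunit of a clathrin adaptor, was at least 97.1-fold higher (161.3 to 1119 CPM).

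Several of the remaining genes encode proteins known from nerve cells. Shank2, a scaffold of synapses, was at 145.2 to 1217 CPM in oocytes with 1 count in somatic cells, a log2 ratio of 7.87 (5.39 to 13.18). Cntn2, a neural adhesion molecule, was at 350 to 889 CPM in oocytes with 1 count in somatic cells, a log2 ratio of 7.77 (5.28 to 13.07). Kcnk13, a potassium channel, was at 738 to 2035 CPM in oocytes and had 4 counts in 1 somatic cell, a log2 ratio of 6.79 (5.43 to 8.67). Shroom4, which binds actin, Prr7, a membrane protein, Zfp334, a zinc finger protein, and Pde3b, which breaks down cyclic AMP, had log2 ratios of 7.71, 7.26, 6.76 and 6.6 and 1 or 2 counts in all somatic cells together. All oocytes lay above all somatic cells for each of the 15 genes, against 6.73% of all compared genes, and the rule favours such genes. For 7 genes the only somatic count was 1, and leaving out its cell set the somatic group to the floor of 3 counts. The floor is more than the count left out, so the ratio falls whichever cell held it. Against the floor, Reln was 7.53 and Dazl 6.43 without somatic replicate 14, and Shank2 6.17 and Prr7 5.56 without somatic replicate 13. Cntn2 was 6.01 and Shroom4 5.96 without somatic replicate 29, and Pde3b 4.88 without somatic replicate 12. Zfp334 was 7.64 and 7.68 without somatic replicates 13 and 24, and Spry4 6.02 without secondary oocyte 5.

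The 15 genes with the lowest ratios came from 535 genes that met the same limits in somatic cells. The log2 ratios were -12.66 to -8.67, and the next gene outside was Gprasp2. A gene without oocyte reads entered the ranking at the floor of 3 counts, above a gene of like somatic level with 1 or 2 counts. None of the 15 lacked oocyte reads, although 420 compared genes did, so the set can leave out genes that are as low. For 10 of the 15, every oocyte lay below every somatic cell, against 2.49% of all compared genes. The rule took low ratios and reads in most somatic cells, so this share describes the genes and tests nothing. Hsd3b1, an enzyme that makes progesterone and other steroids, was read at 4573 to 32172 CPM in all somatic cells, against 2 counts in 2 of 10 oocytes. Its ratio was the lowest, -12.66 (-15.70 to -10.80). Amh, the anti-Müllerian hormone of granulosa cells, had 2 counts in oocytes and was at 238.5 to 7324 CPM in somatic cells (median 2305), a log2 ratio of -9.96 (-13.01 to -8.10). Chst8, which sulphates sugar chains of glycoproteins, had 1 count in oocytes and was at 449 to 3118 CPM in somatic cells, a log2 ratio of -10.06 (-15.36 to -7.57).

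Genes of signalling and growth were also among the lowest. Jun, a subunit of the AP-1 transcription factor, was at 0 to 55.6 CPM in oocytes and 4705 to 13118 CPM in somatic cells, a log2 ratio of -9.46 (-10.59 to -8.54). Irs1, an adaptor of the insulin receptor, was at 0 to 16.1 CPM in oocytes and 0 to 3736 CPM in somatic cells, a log2 ratio of -9.79 (-15.10 to -7.31). Cdk6, a kinase that starts the division cycle, was at 0 to 33.9 CPM in oocytes and 0 to 3401 CPM in somatic cells, a log2 ratio of -8.67. Irs1 and Cdk6 were read in 9 of 11 somatic cells each, so the groups overlapped at 0.

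Vim, the intermediate filament of many somatic cells, had 2 counts in oocytes and was at 521 to 2836 CPM in somatic cells, a log2 ratio of -9.28 (-12.32 to -7.42). Slc18a2, a transporter that loads monoamines into vesicles, was at 0 to 27.8 CPM in oocytes and 1178 to 5584 CPM in somatic cells, a log2 ratio of -9.13. Scd2, a fatty acid desaturase, was at 0 to 42.5 CPM in oocytes and 1230 to 7057 CPM in somatic cells, a log2 ratio of -8.68. Atp1b2, a beta subunit of the sodium pump, was at 0 to 48.4 CPM in oocytes and 1562 to 9340 CPM in somatic cells, a log2 ratio of -8.97. Heph, which oxidises iron, Bicd1, an adaptor of dynein, Cyr61, a matrix-bound signalling protein, and Adamts10, a matrix protease, had log2 ratios of -9.71, -8.85, -8.74 and -8.70, with 1 or 2 counts in all oocytes together. Here too leaving out 1 cell moved the ratio. Chst8, Cdk6, Heph, Cyr61, Bicd1, Adamts10 and Irs1 had all their 1 or 2 oocyte counts in 1 oocyte. Without that oocyte, each ratio below is a bound at the floor of 3 counts. The floor is more than the counts left out, so it sets the move towards 0 for these genes. Without primary oocyte 13, Chst8 was -8.35 and Cdk6 -7.96; without primary oocyte 14, Heph was -7.97; without primary oocyte 15, Vim was -9.97 and Cyr61 -7.85; without primary oocyte 20, Bicd1 was -7.02. Without primary oocyte 17, Amh was -10.81, Slc18a2 -9.71 and Atp1b2 -9.82, and without primary oocyte 19, Vim was -10.13. Without secondary oocyte 5, Hsd3b1 was -13.51, Jun -10.16, Slc18a2 -9.72 and Adamts10 -6.97 (-8.08 without somatic replicate 16), and without secondary oocyte 7, Hsd3b1 was -13.53, Amh -10.83, Irs1 -8.08 and Atp1b2 -9.84.

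Genes read at like levels in both groups were picked as the 8 most abundant of 88 genes whose interval lay within -0.5 to 0.5. Oaz1, an inhibitor of polyamine synthesis, was the most abundant, at 2198 to 5586 CPM in oocytes and 1515 to 4268 CPM in somatic cells, a log2 ratio of 0.33 (0.23 to 0.44). Ddb1, a DNA repair and ubiquitin ligase protein, was at 1553 to 2552 CPM in oocytes and 110 to 6064 CPM in somatic cells, a log2 ratio of 0.08 (-0.04 to 0.21). Hspa9, the mitochondrial HSP70, was at 1217 to 1657 CPM in oocytes and 0 to 2117 CPM in somatic cells, a log2 ratio of 0.22 (0.06 to 0.38). The spread was wider among somatic cells than among oocytes for each of these last 2 genes. Clasp2, which binds microtubule ends, Hyou1, a chaperone of the endoplasmic reticulum, Ston2, of endocytosis, Aldh2, a mitochondrial dehydrogenase, and Atp1b3, a beta subunit of the sodium pump, had log2 ratios of -0.04, -0.30, 0.23, -0.14 and -0.10. The likeness holds for totals as the scale: with TMM or median-of-ratios factors all 8 ratios were above 0, and Oaz1 and Ston2 (Hspa9 with median-of-ratios factors only) passed 1.

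Genes of oocyte function were grouped by role, and members without values on the plate were left out of every count. The counts stand against 23.5% higher and 50.0% lower over all compared genes. Of 7 egg coat genes, 4 had values and all 3 that could be compared were higher, with a median log2 ratio of 5.44. Beside Zp2 and Zp3 this was Oosp1, an oocyte-secreted protein, at 83.9 to 516 CPM in oocytes and 0 to 62.5 CPM in somatic cells, a log2 ratio of 5.91 (4.04 to 8.96), and of at least 5.21 without somatic replicate 27. Oosp2, of the same family, was below the level for a comparison at 20.3 CPM in oocytes and 4.85 CPM in somatic cells.

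For genes that store and translate maternal RNA, 5 of 20 had values and all 5 were higher, with a median of 3.21 (3.79 without somatic replicate 27), beside Dazl Patl2, Pabpc1l, Lsm14b and Zar1l. Pabpc1l, a poly(A)-binding protein of oocytes, was at 490 to 1348 CPM in oocytes and 0 to 433 CPM in somatic cells, a log2 ratio of 3.45 (2.94 to 4.0) without overlap and of 4.13 without somatic replicate 13. Patl2, which is needed for oocyte maturation, was at 364 to 774 CPM in oocytes and 0 to 594 CPM in somatic cells, a log2 ratio of 3.21 (2.66 to 3.81) that was 4.73 without somatic replicate 27, and the groups overlapped although 2 of 11 somatic cells had reads. Lsm14b, which represses translation, had a ratio of 1.91, and of 4.99 without somatic replicate 29. Zar1l had no somatic reads and was at least 8.17-fold higher, but was at or under the floor in both groups (0.14) with cells thinned to 12000 counts. Ooep, the only member with values of the 8 genes of the subcortical maternal complex and its lattice, was at 2362 to 4054 CPM in oocytes and 0 to 672 CPM in somatic cells, a log2 ratio of 4.30 (4.99 without somatic replicate 14).

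The Oas1 and Khdc1 families had 5 of 11 members with values and 4 that could be compared, all higher, with a median of 3.88. Khdc1b was the most abundant, at 1650 to 15752 CPM in oocytes and 0 to 960 CPM in somatic cells, a log2 ratio of 4.15 (3.88 to 4.42). Oas1d, an oocyte member of the oligoadenylate synthetase family in mice, was at 1034 to 2307 CPM in oocytes and 0 to 493 CPM in somatic cells, a log2 ratio of 4.27 (3.81 to 4.80), and of 5.13 without somatic replicate 12. Khdc1a had 3.07 (3.78 without somatic replicate 27) and Khdc1c 3.62 (4.30 and 4.68 without somatic replicates 8 and 10). Nlrp4a, the only member with values of 11 NLRP genes, was at 504 to 3070 CPM in oocytes and 0 to 897 CPM in somatic cells, a log2 ratio of 2.68, and 3.73 without somatic replicate 8. Members of these families resemble each other closely, and how the counting split reads between copies is not given in the sources used here.

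Among genes of meiotic arrest and M phase, 7 of 19 had values, 4 of 6 were higher and none was lower, with a median of 2.81 (3.43 without somatic replicate 8). Bcl2l10, a BCL2 family protein of oocytes, was at 2240 to 6422 CPM in oocytes and 0 to 304 CPM in somatic cells, a log2 ratio of 5.06 (4.64 to 5.51). Mos, the kinase that holds the mature egg in metaphase, was at 357 to 1862 CPM in oocytes and 0 to 321 CPM in somatic cells, a log2 ratio of 4.04 (3.49 to 4.65, and 4.76 without somatic replicate 22), although translation of Mos RNA is known to wait until maturation. Both stood apart from all somatic cells. Aurkc, a meiotic kinase, and Cks2, a partner of cyclin-dependent kinases, had log2 ratios of 3.54 (5.71 without somatic replicate 13) and 2.08 (3.195 without somatic replicate 8) with overlap. Ccnb2, a B-type cyclin, had a ratio of 0.83 (0.52 to 1.15), which passed 1 with TMM and median-of-ratios factors and was 1.59 without somatic replicate 12. Ccnb3, a cyclin of the metaphase to anaphase step in oocyte meiosis, had a ratio of -0.70 (-1.47 to 0.07), where all 29 somatic counts lay in somatic replicate 16. Its sign rests on that cell: the ratio was 2.40 against the floor without it, and -1.31 without primary oocyte 15.

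Of 18 oocyte transcription factors, 9 had values, and of 6 compared 4 were higher and 2 lower, with a median of 2.23, which was 0.48 with no minimum level, 1.4 at a mean of at least 100 CPM and 1.604 with cells thinned to 12000 counts. With TMM or median-of-ratios factors no member was lower. Sohlh1, a helix-loop-helix factor of early follicles, was at 0 to 678 CPM in oocytes and had 9 counts in 1 somatic cell. Its log2 ratio was 3.73 (2.77 to 4.88), and at least 5.14 without that cell, somatic replicate 29. Sohlh2, its partner, and Tbpl2, a TBP relative that drives transcription in growing oocytes, had no somatic reads and were at least 9.84-fold and at least 8.35-fold higher, but with cells thinned to 12000 counts Tbpl2 was at or under the floor of 3 counts in both groups (0.14). Taf4b, a TFIID subunit of gonads, was at 638 to 1630 CPM in oocytes and 0 to 1755 CPM in somatic cells, a log2 ratio of 1.4 with overlap (2.05 without somatic replicate 18). The 2 lower members, Foxo1 (-1.28, and -0.72 with cells thinned) and Yy1 (-1.38), are not specific to oocytes. Single members with values in other oocyte lists were also higher: Dnmt3l, a cofactor of DNA methylation, with no somatic reads and at least 7.05-fold (0.14, at the floor, with cells thinned), Zfp36l2, which binds AU-rich RNA, with a log2 ratio of 2.76 (2.45 to 3.10), and Gja4, connexin 37, with 4.09 (3.78 to 4.42). Gja4 forms the oocyte side of the gap junctions to granulosa cells and was at 2773 to 4267 CPM in oocytes and 0 to 1046 CPM in somatic cells. Syce1, of the synaptonemal complex, was below the level for a comparison, at 39.2 CPM in oocytes and 0 in somatic cells.

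**Figure D3:**
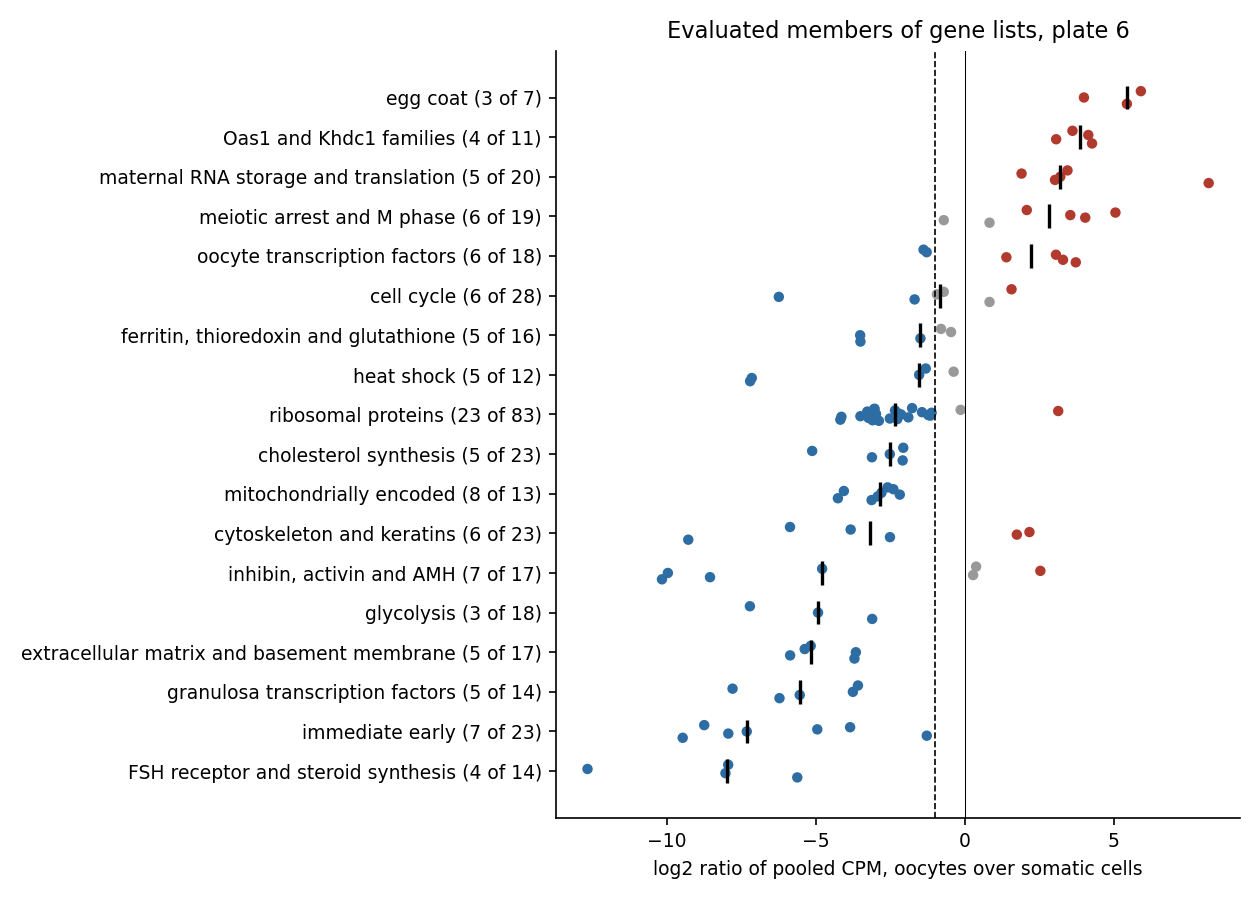
Log2 ratio of oocytes over somatic cells for each compared member (dots, red where at least 2-fold higher, blue where lower, grey between) of the gene lists with at least 3 compared members, with a black bar at the median of the list and a dashed line at the median of all genes, -0.997. Oocyte lists lie to the right of the line (egg coat median 5.44) and granulosa lists to the left (FSH receptor and steroid synthesis median -7.98), and the cell cycle list lies close to it.

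Genes of granulosa function were read from ligands to receptors and targets. The counts of these lists, here and below, stand against 50.0% lower and 23.5% higher over all compared genes. Of 17 genes of inhibins, activins, AMH and related signalling, 7 had values and could be compared, with 4 lower and 1 higher and a median of -4.78 (-6.74 without somatic replicate 24 and -4.18 without somatic replicate 29). The lower members were Inha, Amh, Inhbb and Tgfbr2. Inhbb, the beta B subunit of inhibin and activin, had 1 count in oocytes and was at 0 to 2616 CPM in somatic cells (median 301). Its log2 ratio was -8.55 (-13.86 to -6.05), and -6.88 at the floor without primary oocyte 16. Tgfbr2, a TGF-beta receptor, had no oocyte reads, and all its 46 somatic counts lay in 1 cell, without which it cannot be compared. Acvr1b, an activin receptor, was the higher member, at 118.9 to 336 CPM in oocytes and 0 to 151.8 CPM in somatic cells, a log2 ratio of 2.54 (1.74 to 3.44), and of 3.33 and 3.37 without somatic replicates 8 and 14. Bmpr1b, a BMP receptor, and Fstl3, which binds activin, had ratios of 0.38 and 0.28 and passed 1 with TMM and median-of-ratios factors. Single cells moved both: Bmpr1b was 1.71 without somatic replicate 14, and Fstl3 was -0.99 without primary oocyte 14 and 2.07 without somatic replicate 24. Bambi, a decoy receptor for BMP and TGF-beta signals, was at 0 to 84.04 CPM in oocytes and 26.8 to 989 CPM in somatic cells, a log2 ratio of -4.47 (-5.31 to -3.74).

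All 5 compared granulosa transcription factors were lower, with a median of -5.54 (-6.52 without primary oocyte 17). Foxl2, which keeps granulosa cells female, was at 0 to 27.4 CPM in oocytes and 0 to 740 CPM in somatic cells (median 207.6), a log2 ratio of -6.21 (-8.51 to -4.63), and of -7.65 without primary oocyte 17. Gata6 was at 0 to 82.1 CPM in oocytes and 0 to 1844 CPM in somatic cells (median 897), a log2 ratio of -5.54 (-6.55 to -4.67), and of -6.52 without the same oocyte. Foxl2 and Gata6 were each read in 10 of 11 somatic cells, whereas Runx1 was read in 2, and its log2 ratio of -3.75 was 0.068 without somatic replicate 24, within 2-fold. Sox4 had 1 count in oocytes and a log2 ratio of -7.79 (-6.06 at the floor without secondary oocyte 5). Nr2f2, which also marks stromal cells, had no oocyte reads and 20 somatic counts in 4 cells, a bound of -3.58 that was -0.86 with cells thinned.

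The FSH receptor and steroid genes had 8 of 14 members with values, and the 4 compared were all lower, with a median of -7.98. Beside Hsd3b1, Hsd17b1, which turns estrone into estradiol, had no oocyte reads and was at 45.6 to 1891 CPM in all 11 somatic cells, at least 244.9-fold lower in oocytes. Fshr, the receptor of follicle-stimulating hormone, was at 0 to 14.3 CPM in oocytes and 0 to 1469 CPM in somatic cells, where 6 of 11 cells had reads, a log2 ratio of -5.62 (-7.92 to -4.02), and of -6.90 without primary oocyte 15 and -4.51 without somatic replicate 27. Genes of theca cells and of later follicles were near 0 in both groups: Cyp17a1 and Lhcgr were at 0 CPM in oocytes and 4.85 CPM in somatic cells, and Cyp11a1 had no reads in either. No gene of the WNT or Notch lists reached the level for a comparison, among them Wnt4 with 0 CPM in oocytes and 31.5 CPM in somatic cells and Hes1 with 0 CPM in oocytes and 24.3 CPM in somatic cells.

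Structural and surface genes of somatic cells were mostly lower, where 50.0% of all compared genes were lower and 23.5% higher. Of extracellular matrix and basement membrane genes, all 5 compared were lower, with a median of -5.17, which was -4.31, -4.29, -4.29 and -4.19 without primary oocytes 13, 14, 19 and 20, -3.68 without secondary oocyte 5 and -4.17 without somatic replicate 14. Lama1, a laminin chain, was at 0 to 123.1 CPM in oocytes and 0 to 2585 CPM in somatic cells (median 813), a log2 ratio of -5.86 (-6.74 to -5.10), and of -7.19 without primary oocyte 17. Col4a1, of collagen IV, was read in 4 cells of either group, a log2 ratio of -3.70 (-4.53 to -2.96), and of -4.47 without primary oocyte 17 and -2.51 without somatic replicate 16. Timp3, an inhibitor of matrix proteases, and Nid2, a nidogen, had no oocyte reads and were at least 35.9-fold and at least 12.6-fold lower. All 21 somatic counts of Nid2 lay in 1 cell, without which it cannot be compared, and the log2 bound of Timp3, -5.17, was -4.48 without somatic replicate 14. Among 6 compared cytoskeleton genes 4 were lower and 2 higher, with a median of -3.17, and both counts are near the shares over all compared genes. The higher ones were beta-tubulins: Tubb4b was at 4686 to 7588 CPM in oocytes and 299 to 4237 CPM in somatic cells, a log2 ratio of 1.75 (1.64 to 1.86), and Tubb2a at 2354 to 4327 CPM in oocytes and 0 to 1493 CPM in somatic cells, a log2 ratio of 2.17 (1.99 to 2.36). Neither overlapped between groups. Tuba1a, an alpha-tubulin, went the other way, at 0 to 223.3 CPM in oocytes and 253 to 2432 CPM in somatic cells, a log2 ratio of -3.83. B2m, the light chain of MHC class I, was at 0 to 32.3 CPM in oocytes and 53.6 to 628 CPM in somatic cells, a log2 ratio of -4.25, and Ifitm2, an interferon-induced membrane protein, had 1 count in oocytes and was at 107.7 to 904 CPM in somatic cells. The log2 ratio of Ifitm2 was -8.06, and -6.33 at the floor without primary oocyte 14, which moved the median of the pair, -6.15, to -5.28.

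Immediate early genes, which cells switch on within minutes of a stimulus, were lower in all 7 compared, with a median of -7.31. The reads per cell were few in oocytes, and the median was -6.10 without primary oocyte 20, -5.16, -6.17, -6.16, -5.05, -4.83, -6.13, -5.92, -6.21 and -5.11 without somatic replicates 8, 10, 12, 14, 16, 18, 22, 27 and 29. With TMM or median-of-ratios factors 6 were lower, and Jund (-1.27) was not, nor was it without somatic replicate 8 (-0.85) or 10 (-0.99). Ier2 was at 0 to 47.5 CPM in oocytes and 224.2 to 3588 CPM in somatic cells, a log2 ratio of -7.31 (-8.38 to -6.43) without overlap, as for Jun. Btg2, which slows division, was at 0 to 71.3 CPM in oocytes and 0 to 2303 CPM in somatic cells, a log2 ratio of -4.95. Egr2 had 1 count in oocytes and reads in 3 of 11 somatic cells. Its log2 ratio of -7.93 was -6.10 at the floor without primary oocyte 20 and -6.98 without somatic replicate 8. Of 5 heat shock genes, 4 were lower, with a median of -1.53, but 2 with TMM or median-of-ratios factors. Over all compared genes 50.0% were lower, and with TMM factors 1380 of 3373 were, so the 2 of 5 are near that share. The inducible HSP70 genes Hspa1a (-7.20) and Hspa1b (-7.14), near-identical copies, were the lower ones under each scale, and Hspa1a was -8.94 without primary oocyte 18, with Hspa1b at 0 to 50.9 CPM in oocytes and 735 to 2803 CPM in somatic cells. Hspb1, a small heat shock protein, had a ratio of -1.31 that was within 2-fold without somatic replicates 8 (-0.74) and 24 (-0.13). Hsp90ab1, a constitutive HSP90, was at 3162 to 5965 CPM in oocytes and 8669 to 24232 CPM in somatic cells, a log2 ratio of -1.53 (-1.59 to -1.47) that did not pass -1 under the other scales although the cells did not overlap.

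Metabolic genes that could be compared were mostly lower, against 50.0% lower over all compared genes. Of 18 glycolysis genes, 3 could be compared. All 3 were lower, with a median of -4.92, and did not overlap between groups, as held for 2.49% of all compared genes. Ldha, lactate dehydrogenase A, was at 0 to 83.9 CPM in oocytes and 922 to 3987 CPM in somatic cells, a log2 ratio of -7.21 (-8.21 to -6.36), and of -8.20 without primary oocyte 14. Gapdh was at 89.7 to 448 CPM in oocytes and 605 to 4175 CPM in somatic cells, a log2 ratio of -3.10 (-3.35 to -2.87), and Pgam1 had a ratio of -4.92. Growing oocytes are known to use pyruvate that granulosa cells supply more than glucose. Of 23 genes of cholesterol synthesis, the 5 that could be compared were all lower, with a median of -2.51. Ebp, an isomerase of the pathway, had no oocyte reads, so its value of -5.12 is a bound. Fdps, which makes farnesyl diphosphate, was at 0 to 152.7 CPM in oocytes and 124.5 to 1244 CPM in somatic cells, a log2 ratio of -3.11. Of 5 compared genes of iron storage and redox defence, 3 were lower, and 2 with TMM or median-of-ratios factors, Fth1 and Mt1 (-3.51, and -0.28 with cells thinned). Fth1, the ferritin heavy chain, was at 213.9 to 629 CPM in oocytes and 3036 to 6411 CPM in somatic cells, a log2 ratio of -3.50 (-3.69 to -3.31) without overlap, while Sod1 (-0.46) and Sod2 (-0.79) were within 2-fold.

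Of the 13 mitochondrially encoded genes, 8 could be compared and all were lower, with a median of -2.86, against 50.0% lower over all compared genes. mt-Co1, of cytochrome oxidase, was at 452 to 2843 CPM in oocytes and 4302 to 17955 CPM in somatic cells, a log2 ratio of -2.79 (-2.90 to -2.69). mt-Cytb was at 547 to 3122 CPM in oocytes and 2781 to 20177 CPM in somatic cells, a log2 ratio of -2.59 (-2.69 to -2.49), with slight overlap. Both were highest in primary oocyte 15. In oocytes, mt-Co2 and mt-Atp6 had reads in 1 of 10 cells. The log2 ratio of mt-Co2, -4.05, was -7.75 at the floor without primary oocyte 15. That of mt-Atp6, -2.39, was -5.32 at the floor without primary oocyte 20 and -0.39 without somatic replicate 12, within 2-fold. As a share of reads, the mitochondrial genome took 0.231% to 0.564% in oocytes and 0.367% to 2.31% in somatic cells by the deposited cell table. Ribosomal protein genes were added after their values were seen: of 83, 24 had values, 21 of 23 compared were lower (16 with TMM or median-of-ratios factors) and 1 was higher, with a median of -2.34. The higher one was Rpl10l, a retrogene known from male germ cells, at 64.01 CPM in oocytes and no somatic reads. Rps3a1 was at 383 CPM in oocytes and 6744 CPM in somatic cells.

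Genes of the cell cycle were divided, where 23.5% of all compared genes were higher and 50.0% lower. Of 6 compared, 1 was higher and 2 lower, with a median of -0.82, which was -0.04 with TMM factors, 0.03 with median-of-ratios factors and 0.75 over genes listed on every plate. Ube2c, which helps cells leave mitosis and meiosis, was at 613 to 1525 CPM in oocytes and 0 to 1167 CPM in somatic cells, a log2 ratio of 1.57 (1.32 to 1.83), and of 2.19 without somatic replicate 8. Mcm6, of the replicative helicase, was at 629 to 1287 CPM in oocytes and 62.5 to 5679 CPM in somatic cells, a log2 ratio of -0.93 (-1.08 to -0.78). Its range was wide among somatic cells and narrow among oocytes. Tyms, which makes thymidylate, had a ratio of -0.70, and Cdk2 a ratio of -1.68 (-1.06 without somatic replicate 18) that was within 2-fold under the other scales. Cdkn1a, a brake on the cycle, had 1 count in primary oocyte 20 and 42 in somatic replicate 18, a log2 ratio of -6.24. The ratio was -4.41 without that oocyte and -2.59 without that somatic cell, each time with 1 group at the floor.

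The same groups were also prepared on plate 5, from other cells: 9 oocytes (5 secondary and 4 primary) and 26 secondary somatic cells. That plate lists 16710 genes, 14422 of them shared with plate 6, and 22.8% of 3731 compared genes were higher and 51.4% lower. Of the 42 genes named by rule, 20 had values there. All 8 of the highest 15 with values were at least 2-fold higher on plate 5, and all 8 of the lowest 15 were at least 2-fold lower. Bmp15 was at 9341 CPM in oocytes of plate 5, a log2 ratio of 7.99 against 4.91 on plate 6, and Bcl2l10 had a ratio of 11.2 there against 5.06. The somatic level of Bmp15 was 36.8 CPM on plate 5 and 257 CPM on plate 6, and that of Bcl2l10 was 1.64 CPM on plate 5 and 111.6 CPM on plate 6. Inha was at 36.3 CPM in oocytes and 16348 CPM in somatic cells of plate 5, a ratio of -8.82, Hsd3b1 had -10.1, Amh -7.81, Jun -5.68, and Dazl 5.77. The highest and lowest genes of plate 6 were mostly less extreme on plate 5, as for Csrnp2, which had no somatic reads on plate 6 and 106.3 CPM in somatic cells of plate 5 (976 CPM in oocytes), and Zfp334, at 2.62. The rule picked these genes for extreme ratios on plate 6, so their smaller ratios on plate 5 do not compare the plates. Ccnb3 was at 7.30 on plate 5 and at -0.70 on plate 6, or 2.40 without somatic replicate 16. Of the genes read at like levels, Ddb1 (0.32), Hspa9 (0.54) and Atp1b3 (0.03) were within 2-fold on plate 5.

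**Figure D4:**
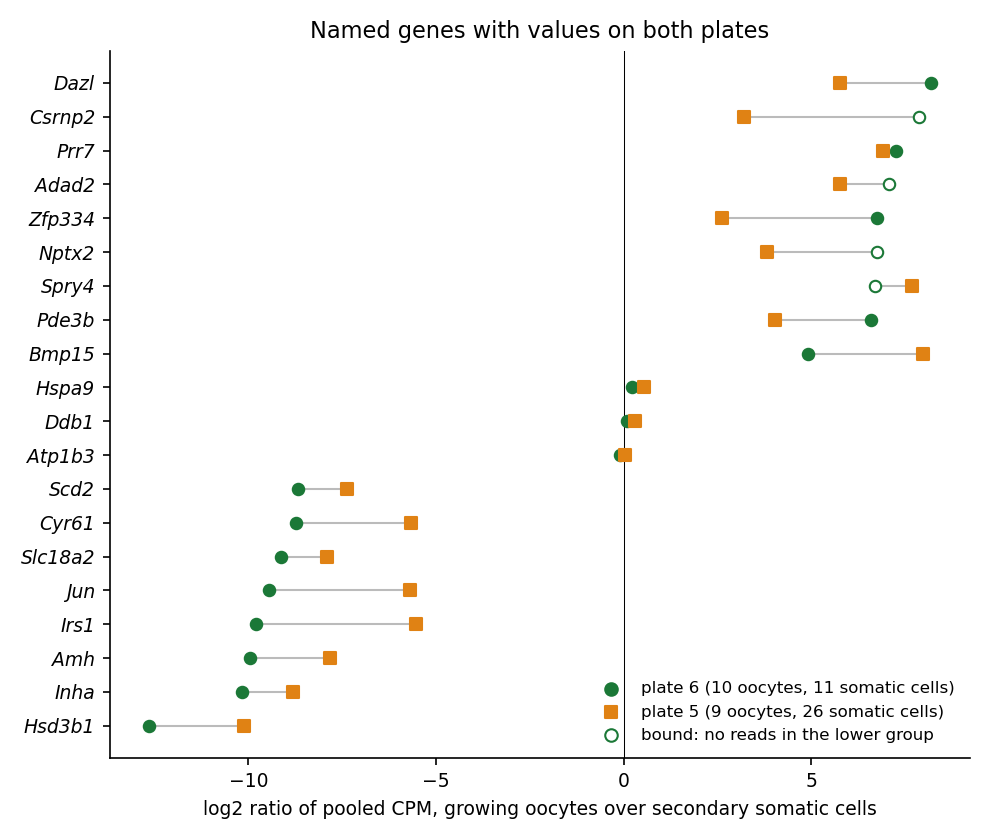
Log2 ratio of oocytes over somatic cells on plate 6 and on plate 5 for the 20 named genes with values on both, with open symbols where 1 group has no reads and the value is a bound. Every gene of the highest and lowest sets lies on the same side of 0 on both plates, with Inha at -10.16 on plate 6 and -8.82 on plate 5.

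Both secondary oocytes were set beside the 8 primary ones to see whether the group is of 1 kind. Of 2492 genes with at least 20 CPM over the oocytes, both secondary cells lay above all primary cells for 72 (2.89%) and below all of them for 334 (13.4%). Any 2 oocytes can lie above or below all others by chance, and the share that chance gives was not worked out. The genes given here beside Bmp15 were chosen after their values were seen, and with 2 cells no test was made. Spry4 was at 3404 and 3098 CPM in the secondary oocytes and 28.01 to 530 CPM in the primary ones (median 77.4), so its summed level rests on 2 cells. Bmp15 was at 15422 and 14989 CPM in secondary and 2951 to 9130 CPM in primary oocytes (median 5371). Khdc1b was at 15752 and 9275 CPM in secondary and 1650 to 6518 CPM in primary oocytes (median 3218). Bcl2l10 was at 5488 and 6422 CPM in secondary and 2240 to 4848 CPM in primary oocytes (median 2756). Gdf9, at 20494 and 17861 CPM in secondary and 9346 to 17158 CPM in primary oocytes, was also above, by little for the lower secondary cell. Zp2, at 46850 and 38320 CPM in secondary and 29547 to 46039 CPM in primary oocytes, overlapped between the stages, and Zp3, at 25384 and 25815 CPM in secondary and 27528 to 33277 CPM in primary oocytes, was lower in both secondary cells.

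Adad2 and Sohlh1 were among the genes below all primary oocytes. Adad2 was at 236.2 and 274 CPM in secondary and 812 to 2256 CPM in primary oocytes (median 1014), and Sohlh1 was at 27.8 and 0 CPM in secondary and 28.01 to 678 CPM in primary oocytes (median 280). On plate 5, with 5 secondary and 4 primary oocytes, Adad2 again did not overlap, at 166.4 to 419 CPM in secondary and 899 to 1478 CPM in primary oocytes. Bmp15 did not overlap there either (8579 to 15288 CPM in secondary and 4670 to 7359 CPM in primary oocytes), nor did Khdc1b (3834 to 13295 CPM in secondary and 908 to 3105 CPM in primary oocytes). The stages overlapped on plate 5 for Spry4 (505 to 2274 CPM in secondary and 281 to 867 CPM in primary oocytes), Bcl2l10 (2331 to 7636 CPM in secondary and 2621 to 3769 CPM in primary oocytes) and Sohlh1 (0 to 66.5 CPM in secondary and 49.6 to 176.5 CPM in primary oocytes). Among genes with at least 100 CPM in oocytes, 33 lay above and 266 below in the secondary cells of plate 6. Of the 21 above with values on plate 5, 13 (61.9%) had a higher mean in secondary oocytes there, against 25.4% of all genes with at least 100 CPM in oocytes and values on plate 5, and of those below, 87.8% had a lower mean, against 74.6% of all. Thinned to 12000 counts, the secondary oocytes had reads of 1595 and 1708 genes, fewer than the 1781 to 1912 of the primary oocytes, and the part of this in the larger count of lower genes was not tested.

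**Figure D5:**
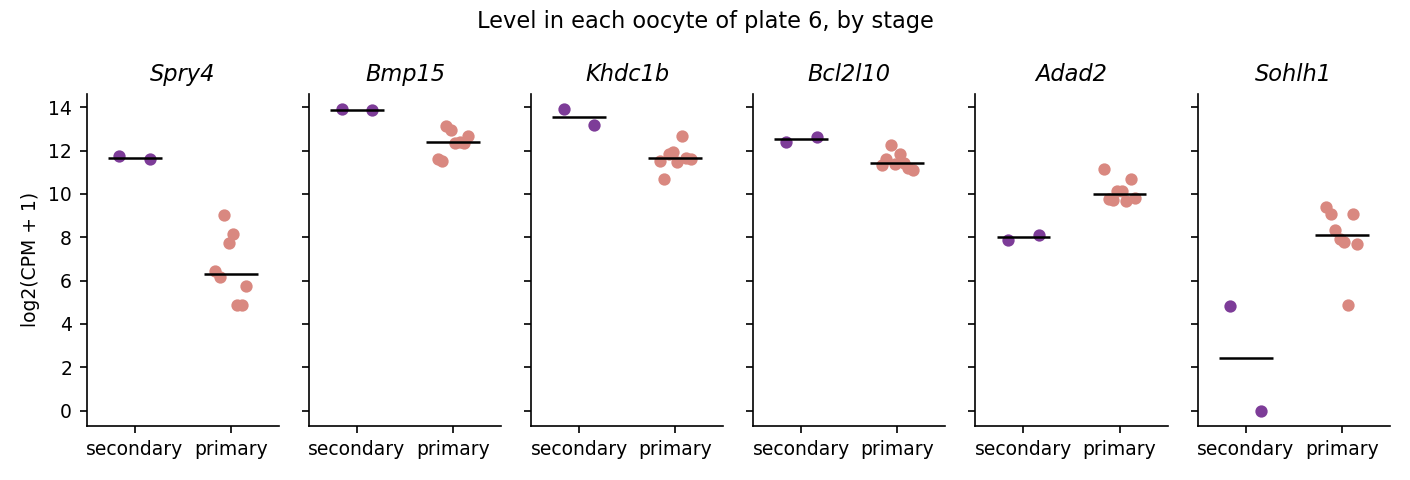
Level per cell, log2(CPM + 1), of 6 genes in the 2 secondary oocytes (left) and the 8 primary oocytes (right) of plate 6, with bars at the medians. Spry4, Bmp15, Khdc1b and Bcl2l10 are higher in both secondary oocytes than in any primary one, and Adad2 and Sohlh1 lower.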

How the data were processed

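SMART-Seq2 libraries of single oocytes and somatic cells of mouse follicles were compared within library plate 6, with plate 5 beside it. The authors aligned the reads to GRCm38, removed cells with fewer than 500 genes or with high marker scores of the other cell type, and worked in Seurat 4. The deposited table holds expected counts per gene and cell, not normalized, of which 12.6% of those above 0 are not whole (tolerance 0.001). The counter, its handling of strand and of reads shared between copies, and the meaning of missing values are not given in the sources used here. The deposited cell table, made by the authors, gives the fraction of reads on rRNA, introns, the mitochondrial genome and duplicates. No column of per-sample values lacked a sample.

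Of 25149 rows, 27 named by dates were left out (0.0205% of the counts of plate 6). A gene has values in all cells of the plate or in none. The counts of the cells in a group were added up, divided by the total over all genes of the plate with values, and compared as log2 ratios of CPM without a pseudocount, with 95% intervals from the exact binomial split of the 2 sums. A group without reads was set to a floor of 3 counts over the group, and such genes entered list medians at that bound. The same was done where leaving out 1 cell took all reads of a gene from a group, so the ratio is then a bound. The floor also ranks a gene without reads in the lower group as less extreme than 1 with 1 or 2 counts there. A gene was compared where the group CPMs averaged at least 20, and counted as higher or lower at a log2 ratio of at least 1 in size. Named genes were the markers, the 15 highest and 15 lowest ratios among genes with at least 100 CPM and reads in at least 75% of cells in the higher group, the 8 most abundant with an interval within -0.5 to 0.5 (clone, Gm and Rik names left out), and members of the lists. The cells, lists and rules were chosen with earlier results of these data known. Single values of some list members are not reported here.

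Positions came from GENCODE release M21 by symbol (41 of 42 named genes matched, of which 11 have exons overlapped by another gene, 2 of them on the same strand) and promoters from RefSeq (27 of 42 matched). Counts of genes with near-identical copies (Oas1, Khdc1, Hsd3b, Hspa1a and Hspa1b, NLRP genes) are uncertain. Alternatives were size factors by TMM (edgeR 4.0.16) and by median of ratios (DESeq2 1.42.0), single-cell CPM averaged over cells, genes listed on every plate, other minimum levels and thresholds, primary oocytes only, transitioning oocytes added, cells thinned to 12000 counts, clone names left out, and each cell left out in turn. The calculation was tested on simulated data. Python 3.11.15, numpy 2.4.6, pandas 2.3.3, scipy 1.17.1, matplotlib 3.10.9 and R 4.3.3 were used. The count models of edgeR and DESeq2 were not fitted, since each group is 1 sample.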

Additional observations from a re-analysis of the deposited data

Results flagged for a closer look

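Over the 10 oocytes, 73 measures were looked at. They were quality measures of the cells, such as total count and rRNA share, and CPM of named genes and list members with at least 100 CPM in oocytes. For 9, all of them CPM of genes, the gap of the highest oocyte to the next, over the whole range, was above Dixon's 95% critical value. Chance gives such a gap in about 1 of 20 groups. Primary oocyte 15 stood out in 4 mitochondrially encoded genes: mt-Co1 was at 2843 CPM there (next oocyte 1205 CPM, median 970 CPM), mt-Cytb at 3122 CPM (next 1806 CPM, median 950 CPM), mt-Nd4 at 351 CPM (next 190.98 CPM, median 99.3 CPM) and mt-Nd5 at 2693 CPM (next 1181 CPM, median 694 CPM). This oocyte also had the highest total count of the 10, 139643, and the part of depth was not tested. Nptx2 was at 1878 CPM in primary oocyte 16 (next 968 CPM, median 775 CPM), as was Foxo1, a transcription factor, at 1009 CPM (next 549 CPM, median 393 CPM). Khdc1c was at 503 CPM in secondary oocyte 5 (next 226.3 CPM, median 143.6 CPM), Kcnk13 at 2035 CPM in primary oocyte 13 (next 1426 CPM, median 1132 CPM) and Atp1b3 at 2200 CPM in primary oocyte 14 (next 1359 CPM, median 1060 CPM).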

How the results depend on the processing

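No paired analysis was possible because each group counts as 1 sample and the replicate numbers of oocytes and somatic cells mark no shared animal or collection. The counts of genes that turned, changed sign, came within 2-fold or moved cover only the named genes and compared list members. Ribosomal protein genes and the rest of the compared genes were not part of them. Of genes that were at least 2-fold higher or lower, 2 turned: Nid2, at -3.65, was 0.14 with cells thinned to 12000 counts, where its level in both groups was at or under the floor of 3 counts, and Runx1, at -3.75, ranged from -4.02 without primary oocyte 17 to 0.068 without somatic replicate 24. Of genes within 2-fold, 12 changed sign under some setting, the farthest being Ccnb3 (-0.70, and 2.40 without somatic replicate 16) and Fstl3 (0.28, and -1.18 with cells thinned). With cells thinned, 8 genes came within 2-fold: Nid2, Zar1l, Tbpl2, Dnmt3l, Nr2f2, Mt1, Foxo1 and Idi1. The median log2 ratio of all compared genes, -0.997, was -0.22 with TMM factors, -0.15 with median-of-ratios factors, -2.26 over genes listed on every plate, -1.20 with no minimum level, -0.44 at a mean of at least 100 CPM, -0.86 with cells thinned to 12000 counts and -0.72 without clone, Gm and Rik names. The count of higher genes, 791, was 463 over genes listed on every plate, 472 at a mean of at least 100 CPM and 521 at a log2 ratio of at least 2. The count of lower genes, 1685, was 3519 with no minimum level and 727 at a mean of at least 100 CPM. Other minimum levels and thresholds change which genes are compared or where the threshold lies, while scaling and thinning change the levels. Taking only genes listed on every plate also changes the totals, and so every ratio. So does leaving out clone names, which hold 19.6% of oocyte counts and 9.57% of somatic counts. The cause of a change was not tested where levels or totals changed. Leaving out each cell in turn gave 783 to 834 higher genes, 1662 to 1705 lower genes and medians of -1.05 to -0.95. Of the values of single genes under the other settings, 1122 stayed within the counting interval and 250 (18.2%) moved beyond it, and 63.9% of the values of list medians moved by 0.1 or more. Leaving out 1 cell moved the ratio of 63 genes by over 1.5-fold, most of the named genes and list members that were higher or lower. Some of these genes lost all their reads in a group with that cell, so their new ratio is a bound at the floor of 3 counts. Among the same named genes and list members, 4 (Runx1, Hspb1, mt-Atp6 and Jund) came within 2-fold without 1 cell. Of list medians, that of inhibin, activin and AMH genes (-4.78) was -1.74 with cells thinned and -9.33 over genes listed on every plate, that of heat shock genes (-1.53) was -7.25 over genes listed on every plate, and that of immediate early genes (-7.31) was -4.00 with cells thinned, -3.84 with no minimum level and -4.78 without clone names. The median of FSH receptor and steroid genes (-7.98) was -5.20 with cells thinned and -5.62 with no minimum level, that of matrix genes (-5.17) -2.84 and -3.70, and that of egg coat genes (5.44) 4.13 and 4.72. Depth limits what can be said of low genes: 1 count in a group is 1.35 CPM in oocytes and 2.43 CPM in somatic cells.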
